A study of Mus musculus with 18 samples.

Results

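The genes described here encode the proteasome and its helpers, followed through erythroid differentiation of mouse fetal liver cells with and without knockdown of the RNA-binding proteins PCBP1 and PCBP2. They are the protein-coding genes of the GENCODE M21 annotation whose symbols start with Psm, one of the letters a to g and a digit, leaving out Psmb8 and Psmb9, and they number 48 of the 46167 genes with estimated reads summed from the transcript tables. By role they fall into 8 genes of the core alpha ring, 9 of the core beta ring, 6 ATPases of the regulatory base, 11 non-ATPase subunits of the regulatory particle, 7 assembly chaperones and 6 alternative caps or inhibitors. The remaining gene, Psmc3ip, fits the spelling but encodes a protein of meiotic recombination and no subunit. A total of 47 of the 48 passed the filter on low counts, and the exception was Psme2b.

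The proteasome is the protease that degrades proteins tagged with ubiquitin. Its core particle is a barrel of alpha and beta rings, in which Psmb5, Psmb6 and Psmb7 carry the active sites. The regulatory particle on the ends of the barrel recognises, unfolds and feeds in the tagged protein, while alternative caps such as PA28 and PA200 open the barrel without ubiquitin. Developing red cells remove much of their cytoplasm and organelles before they enter the blood, and ubiquitin-dependent degradation is part of that remodelling.

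Hematopoietic progenitors were enriched from the livers of E14.5 CD-1 mouse embryos and infected with MSCV-PIG retroviruses carrying short hairpins. Every group received a retroviral hairpin, the controls a scrambled (SCR-1, SCR-2) or a luciferase (LUC-1) one. Day 0 cells had grown for 48 hours in expansion medium with dexamethasone, stem cell factor and 0.5 U/mL erythropoietin, and Day 2 cells had spent a further 2 days in differentiation medium with 5 U/mL erythropoietin. Each day has 3 control libraries, 3 libraries with PCBP1 knockdown (hairpins SH1, SH3 and SH4) and 3 with PCBP2 knockdown (hairpins SH1, SH3 and SH4), which makes 18 libraries in all. A knockdown group therefore holds 3 different hairpins. The labels do not say whether libraries came from separate embryos or cultures, so the p-values measure only the spread between these libraries.

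The libraries held 27033440 to 54096339 estimated reads each. Day separated them along a first principal component with 88.6% of the variance, and spread was larger at Day 2 than at Day 0 (edgeR common dispersion 0.0293 against 0.00749). Globin transcripts took 0.3002 to 0.4833% of reads at Day 0 and 24.67 to 33.36% at Day 2. Hairpins lowered their targets on both days. At Day 0 Pcbp1 read 185.6, 197.3 and 205.7 CPM (counts per library size, scaled by edgeR's TMM factors) in controls and 14.2, 59.4 and 24.3 with PCBP1 hairpins, and Pcbp2 read 281.8, 285.3 and 298.6 in controls and 71.0, 70.3 and 73.5 with PCBP2 hairpins. At Day 2 Pcbp1 fell from 241.5, 280.7 and 283.6 in Day 2 controls to 15.6, 57.2 and 40.4 with the PCBP1 hairpins, the weakest of them SH3, and Pcbp2 fell from 229.1, 224.7 and 247.2 to 39.5, 37.0 and 48.0 with the PCBP2 hairpins. The 11 measured erythroid markers all rose from Day 0 to Day 2 in controls, from 3972 to 4631 CPM in sum to 525063 to 708749, while 5 of 6 progenitor markers fell (546.2 to 559.7 against 23.3 to 30.8 in sum). All 8 macrophage markers fell (30.5 to 34.4 against 11.7 to 12.6 in sum), and 5 of 8 neutrophil markers rose and 3 fell (904.6 to 1023.3 against 894.4 to 1287.6), against 3 higher and 4 lower by library totals. Of the other marker lists, mast cell, basophil and eosinophil genes had 1 higher and 3 lower of 6 tested (0 higher and 5 lower by library totals), megakaryocyte genes 4 higher of 6 (1 higher and 4 lower by library totals), hepatocyte genes 3 lower of 3, endothelial and stromal genes 2 higher of 3, and lymphoid genes 2 higher of 2 (1 higher in each by library totals). The part of these other cells in the values that follow was not tested, and in bulk samples fewer cells of a type and less RNA per cell cannot be told apart.

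The first comparison asks how the proteasome genes moved as control cells differentiated. From Day 0 to Day 2, on the TMM scale, Psme3, Psmd10, Psme4, Psmd4, Psme2 and Psmd11 rose most among the well-measured members, of which Psmd4, Psme2 and Psmd11 took a minus sign when scaled by library totals. Psmg1, Psmb10, Psmg2 and Psmd3 were among those that fell most. On the log2 scale the extremes were a rise of 3.54 for Psme3 and a fall of 3.94 for Psmg1. Of the 47 members tested, 11 were called higher, 32 lower and 4 neither (edgeR's quasi-likelihood test, Benjamini-Hochberg adjusted p under 0.05 over 17500 genes). Over all genes tested, 82.8% were called, 40.4% higher and 42.4% lower, so the number of calls is near the background and the split leans to lower. The members' median log2 fold change was -0.56, against -0.05 over all genes. Groups did not overlap for 43 of the 47, against 83.2% of all genes. Scaling by library totals in place of TMM moved the median of all genes to -1.68 and that of the members to -2.20, with 4 members higher and 42 lower (20.3% and 64.8% of all genes). Under that scaling Psme3, Psmd10, Psme4 and Psmb11 stayed higher, whereas Psmd4, Psme2, Psmd11, Psmd5, Psmf1, Psma2 and Psmb5 took a minus sign, though all 7 still lay above the median of all genes. Counting only reads of protein-coding transcripts, an alternative chosen after seeing the data, gave 14 higher and 23 lower. Of 13135 genes, 39.2% were then higher and 44.0% lower, so the lower count lay near that of the background. The member median was -0.17 and the all-gene median -0.19.

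The members' part of all reads moved from 0.7385 to 0.8088% across the 9 Day 0 libraries to 0.3313 to 0.4062% across the 9 Day 2 libraries. Without globin reads it was 0.7416 to 0.8124% and 0.4929 to 0.5429%. The ranges of the days did not overlap in either form.

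Psme3 encodes PA28γ, a nuclear cap that opens the core without ATP or ubiquitin. Its level was 216.4, 224.2 and 232.1 CPM in the Day 0 controls (224.3 ± 7.9, SD, n = 3) and 2496.3, 2606.8 and 2724.2 CPM in the Day 2 controls (2609.1 ± 113.9, SD, n = 3). All Day 2 libraries lay far above all Day 0 libraries, a log2 change of 3.54 (SE 0.10, edgeR adjusted p = 8.87e-20). The other nuclear cap, PA200, is encoded by Psme4, which rose from 153.5, 153.0 and 147.8 CPM to 613.6, 480.6 and 577.4 CPM (log2 change 1.88, SE 0.11, edgeR adjusted p = 4.46e-14).

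PA28α and PA28β, the products of Psme1 and Psme2, form together the cytoplasmic cap known from antigen processing. Their transcripts moved in opposite directions. Psme1 fell from 31.7, 34.8 and 32.6 CPM to 9.44, 12.5 and 16.2 CPM (log2 change -1.38, SE 0.14, edgeR adjusted p = 2e-09). Psme2 rose from 46.3, 49.9 and 53.3 CPM to 86.4, 110.2 and 111.3 CPM (log2 change 1.04, SE 0.12, edgeR adjusted p = 1.91e-08), but was at -0.60 when scaled by library totals. Neither pair of groups overlapped. Psme2b is a near-identical copy of Psme2, so the split of reads between them is uncertain, but it held only 3 to 13 estimated reads per Day 0 control and 0 to 7 per Day 2 control.

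Psmf1 encodes PI31, first described as an inhibitor of the core and later as a carrier of proteasomes. It rose from 38.6, 35.5 and 33.4 CPM to 52.9, 56.1 and 50.9 CPM (log2 change 0.57, SE 0.10, edgeR adjusted p = 7.6e-06), and was at -1.06 when scaled by library totals.

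The 7 assembly chaperones help to build the particles and leave before the enzyme works. Of them 2 rose and 5 fell, against 1 and 6 by library totals. All 4 chaperones of the core, Psmg1 to Psmg4, fell, with a median log2 change of -2.42. Psmg1 pairs with Psmg2 to seat the alpha ring. It went from 19.0, 20.4 and 27.9 CPM to 1.37, 1.45 and 1.57 CPM (log2 change -3.94, SE 0.18, edgeR adjusted p = 5.12e-16), and Psmg2 from 41.1, 40.0 and 43.8 CPM to 9.29, 7.46 and 7.45 CPM (log2 change -2.37, SE 0.11, edgeR adjusted p = 1.85e-15). Day 2 levels of both genes lay well below every Day 0 level. Psmg3 and Psmg4, the second pair, fell by 2.11 and 2.48 on the log2 scale.

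Chaperones of the regulatory base moved both ways. Psmd10 encodes gankyrin, which binds the ATPase Psmc4 during assembly and is also known for its binding of cell-cycle proteins. It rose from 23.4, 22.3 and 19.7 CPM to 162.2, 141.4 and 174.2 CPM (log2 change 2.87, SE 0.12, edgeR adjusted p = 1.72e-16). Psmd5 rose as well, from 64.1, 66.7 and 72.0 CPM to 126.4, 104.1 and 131.0 CPM (log2 change 0.83, SE 0.11, edgeR adjusted p = 1.13e-07), but was at -0.80 when scaled by library totals. Psmd9, the other base chaperone, fell by 0.95.

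Psme3 and Psmg1 mark the ends of the range, and their promoters are shown to set them side by side. The 250 bases before each RefSeq start (GRCm38.p6) are given 5′ to 3′ on the gene's strand, with the letters CCGGAAG, which resemble the site of ETS family factors, in capitals. The Psme3 stretch is chr11:101315963-101316212 on the plus strand, and the Psmg1 stretch is chr16:95990961-95991210 on the minus strand.
Psme3: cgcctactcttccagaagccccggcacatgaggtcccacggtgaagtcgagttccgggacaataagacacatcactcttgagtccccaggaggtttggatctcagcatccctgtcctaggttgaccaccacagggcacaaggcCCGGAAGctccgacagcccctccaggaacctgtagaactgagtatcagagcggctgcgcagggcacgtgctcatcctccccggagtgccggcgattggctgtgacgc
Psmg1: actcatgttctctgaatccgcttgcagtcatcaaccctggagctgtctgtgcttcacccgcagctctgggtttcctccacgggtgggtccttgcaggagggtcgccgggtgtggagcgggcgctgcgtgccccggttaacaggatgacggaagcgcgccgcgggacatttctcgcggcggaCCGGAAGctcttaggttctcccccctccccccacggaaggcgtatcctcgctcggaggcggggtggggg
Both windows hold 1 match, although one gene had the largest rise and the other the largest fall. RefSeq windows of 300 bases, from 250 before to 50 after the start, were matched for 40 members, of which 11 were called higher and 25 lower at Day 2, and for 27025 genes in all, whether measured here or not. Searched on both strands, CCGGAAG occurred in 15 of the 40 members (37.5%) and in 9.93% of all windows. Of those 15 members, 4 rose (Psme3, Psme4, Psmd4, Psmd11) and 10 fell. The letters TGACNNNGC, a form of the site read by the regulator of proteasome genes Nfe2l1 and its relatives, occurred in 6 members (15.0%, against 14.0%), namely Psmb5, Psmb6, Psmc6, Psmd12, Psmd9 and Psme4. The related TGAGNNNGC occurred in 13 (32.5%, against 19.8%), CCAAT in 14 (35.0%, against 41.1%), GGGCGG in 22 (55.0%, against 38.2%), the GATA-type AGATAA in 3 (7.5%, against 12.7%) and CACCC in 16 (40.0%, against 59.8%). TGACNNNGC and TGAGNNNGC differ by 1 letter and cannot match at the same place on a strand, while matches of the other motifs may share bases. A match describes letters only.

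**Figure D1:**
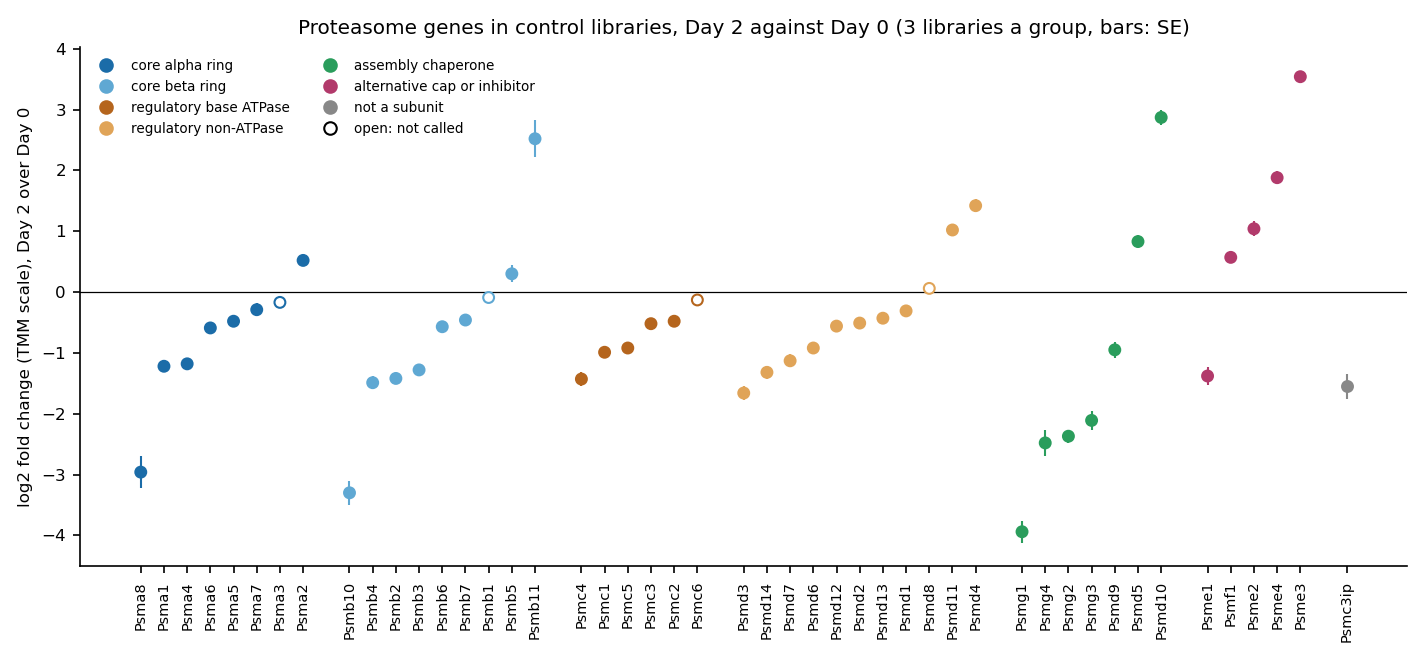
Log2 fold change of each tested proteasome gene from Day 0 to Day 2 in control libraries (TMM scale; points are genes ordered by role, bars are SE, open points were not called). Psmg1 and Psmb10 lie lowest, Psme3 and Psmd10 highest; scaled by library totals, Psmd4, Psme2, Psmd11, Psmd5, Psmf1, Psma2 and Psmb5 take a minus sign.

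The body of the enzyme was mostly lower when all transcripts were counted. Of 31 constitutive subunits of the core and the regulatory particle, 23 fell, 4 rose and 4 were not called. Their median log2 change was -0.52, and over all genes 42.4% were lower and 40.4% higher. Fewer fell with reads of protein-coding transcripts only, where 44.0% of all genes were lower and 39.2% higher. Psma5, Psma7, Psmb6, Psmb7, Psmc2, Psmc3, Psmd1, Psmd12 and Psmd13 were then not called. Psmb1 (0.38), Psmc6 (0.33) and Psmd8 (0.52) were then called higher. In the alpha ring 6 of 8 genes fell, among them Psma1 (-1.22) and Psma4 (-1.18), and Psma2 rose from 124.2, 126.8 and 141.9 CPM to 203.9, 183.8 and 175.7 CPM (log2 change 0.52, SE 0.09, edgeR adjusted p = 1.91e-05; -1.11 when scaled by library totals). Psma3 was not called, with a log2 change of -0.17. Psma8, the alpha subunit of the testis, fell from 282, 288 and 255 reads to 12, 20 and 5 reads.

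Of the 3 catalytic subunits of the beta ring, Psmb6 and Psmb7 fell and Psmb5 rose on the TMM scale over all transcripts. With reads of protein-coding transcripts only, Psmb6 (-0.17) and Psmb7 were not called, and Psmb5 was at 0.76. Psmb6 carries the caspase-like site and went from 74.9, 77.3 and 81.9 CPM to 50.1, 50.2 and 57.3 CPM (log2 change -0.57, SE 0.10, edgeR adjusted p = 8.89e-06). Psmb7, with the trypsin-like site, went from 102.5, 107.9 and 116.7 CPM to 83.2, 72.6 and 82.2 CPM (log2 change -0.46, SE 0.10, edgeR adjusted p = 0.000173). For Psmb5, with the chymotrypsin-like site, the groups overlapped: 32.1, 35.5 and 37.4 CPM against 35.0, 45.6 and 48.7 CPM, with a log2 change of 0.30 (SE 0.14) close to the threshold (edgeR adjusted p = 0.049) and a value of -1.34 when scaled by library totals. Psmb10, the interferon-inducible counterpart of Psmb7 in the immunoproteasome, fell from 16.4, 17.2 and 18.6 CPM to 1.37, 2.37 and 1.51 CPM (log2 change -3.30, SE 0.20, edgeR adjusted p = 1.14e-13). The ratio of Psmb7 to Psmb10 in TPM (the level per transcript length) was 6.98 in each Day 0 control and 67.1, 34.0 and 60.3 in the Day 2 controls. The Day 2 ratios rest on these low Psmb10 levels. Psmb11, the subunit of the thymus cortex, was called higher but rested on few reads, 24, 25 and 21 at Day 0 and 55, 59 and 28 at Day 2. Among the structural beta subunits Psmb4, Psmb2 and Psmb3 fell by 1.49, 1.42 and 1.28, and Psmb1 was not called (-0.09).

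None of the 6 base ATPases, which pull the substrate into the core, rose when all transcripts were counted. With reads of protein-coding transcripts only, Psmc6 was called higher (0.33). The ATPases called lower numbered 5, led by Psmc4 (-1.43, SE 0.11) and Psmc1 (-0.99), with Psmc2 from 158.0, 157.7 and 172.8 CPM to 120.1, 115.0 and 115.0 CPM (-0.48). Psmc6 was not called, at 131.7, 129.1 and 145.2 CPM against 138.5, 127.3 and 104.2 CPM. In the rest of the regulatory particle 8 of 11 genes fell. Psmd3, a lid subunit, went from 125.6, 134.1 and 131.2 CPM to 42.7, 44.1 and 37.2 CPM (log2 change -1.66, SE 0.12, edgeR adjusted p = 2.63e-12), and Psmd14, the lid's deubiquitinase, fell by 1.32. The exceptions that rose were Psmd4 and Psmd11. Psmd4 is a receptor for ubiquitin chains and rose from 126.7, 130.1 and 144.1 CPM to 408.4, 366.9 and 299.2 CPM (log2 change 1.42, SE 0.11, edgeR adjusted p = 2.81e-11; -0.20 when scaled by library totals). Psmd11, a lid subunit, rose from 102.2, 103.6 and 113.3 CPM to 234.4, 205.1 and 207.3 CPM (log2 change 1.02, SE 0.09, edgeR adjusted p = 8.16e-11; -0.61 when scaled by library totals). Psmd8 was not called (0.06). Psmc3ip, the member that is no subunit, fell by 1.55.

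The same comparison within knockdown cells gave 10 higher, 33 lower and 4 not called with PCBP1 hairpins (82.0% of all genes called, 40.3% higher and 41.7% lower) and the same 3 counts with PCBP2 hairpins (83.0%, 40.9% higher and 42.1% lower). Member medians were -0.61 and -0.59 against -0.04 over all genes in both. Library totals gave 4 higher and 42 lower in each, with all-gene medians of -1.47 and -1.45, and reads of protein-coding transcripts alone gave 14 higher and 24 lower with PCBP1 hairpins and 15 and 23 with PCBP2 hairpins. In controls, library totals called 20.3% of all genes higher and 64.8% lower, and protein-coding transcripts alone 39.2% and 44.0%. On the TMM scale over all transcripts, 10 genes were called higher in all 3 conditions and 32 lower. The higher ones were Psma2, Psmb11, Psmd4, Psmd5, Psmd10, Psmd11, Psme2, Psme3, Psme4 and Psmf1. Psmc6 and Psmd8 were called in no condition, and the call differed for Psma3, Psmb1 and Psmb5. The members at the ends of the range moved in the same direction: Psme3 rose by 3.11 with PCBP1 and 3.44 with PCBP2 hairpins, Psmd10 by 2.62 and 2.66, and Psmg1 fell by 3.19 and 3.99.

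Levels per length show how the ranking of subunits spread out. In Day 0 controls the highest TPM were those of Psma7 (376.6 ± 4.2, SD, n = 3), Psmb3 (372.9 ± 3.0), Psma2 (356.4 ± 12) and Psmb4 (351.4 ± 3.8), of which Psma7 and Psmb3 differ by less than the SD of Psma7, and Psme3 stood at 272.2 ± 4.6. In Day 2 controls Psme3 led with 925.6 ± 100.8 TPM (812.5 to 1006.1), several times the level of the next gene, Psmd4 (161.6 ± 44). Psma2 (125.1 ± 25) and Psme2 (113.1 ± 13) followed and differed by less than the SD of Psma2, as did Psma7 (84.8 ± 14) and Psmd11 (83.9 ± 20) by less than theirs. Some of these levels include transcripts annotated as non-coding. Over protein-coding transcripts alone, Psmb4 was at 171 TPM in Day 0 controls, and Psme2 at 59.4 in Day 2 controls, below Psmd11 (71.2), Psmd10 (64.4), Psma7 (62.6) and Psmb1 (62.6). Psme3, Psmd4 and Psma2 were then at 802, 141 and 125 TPM in Day 2 controls. Over all transcripts the lowest genes at Day 2 were Psmg1 (0.856), Psmb10 (0.812), Psmb11 (0.309), Psma8 (0.213) and Psme2b (0.112). TPM is a share of all transcripts, so it moves with the globin share: Psme4 was at 54.6 ± 3.8 TPM at Day 0 and 55.3 ± 9.5 TPM at Day 2. A ratio within a library does not depend on that share, and Psme3 to the ATPase Psmc2 went from 1.28 to 1.36 in Day 0 controls to 24.4 to 26.8 in Day 2 controls.

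The spread between subunits was wider at Day 2, more so in the regulatory particle than in the core. Among the 31 constitutive subunits, the SD of log2 TPM within a library was 0.46 to 0.50 in the 9 Day 0 libraries and 0.76 to 0.88 in the 9 Day 2 libraries, with no overlap. The highest subunit stood 3.21 to 4.25 times above the lowest at Day 0 and 10.6 to 16.3 times at Day 2. These values count all transcripts. Over protein-coding transcripts alone the Day 0 range was far wider, with Psma3 lowest at 18.7 TPM and Psmb3 highest at 368 in controls. In Day 2 controls Psma3 was then at 4.57 and Psmd4 at 141 TPM. The SD over protein-coding transcripts was not computed. For the regulatory particle the SD went from 0.27 to 0.31 at Day 0 to 0.83 to 0.98 at Day 2, and for the core from 0.46 to 0.54 to 0.59 to 0.70. The beta ring alone showed no such widening, at 0.54 to 0.67 and 0.36 to 0.58. Median subunit TPM went from 214.0 to 246.8 at Day 0 to 30.9 to 50.3 at Day 2.

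**Figure D2:**
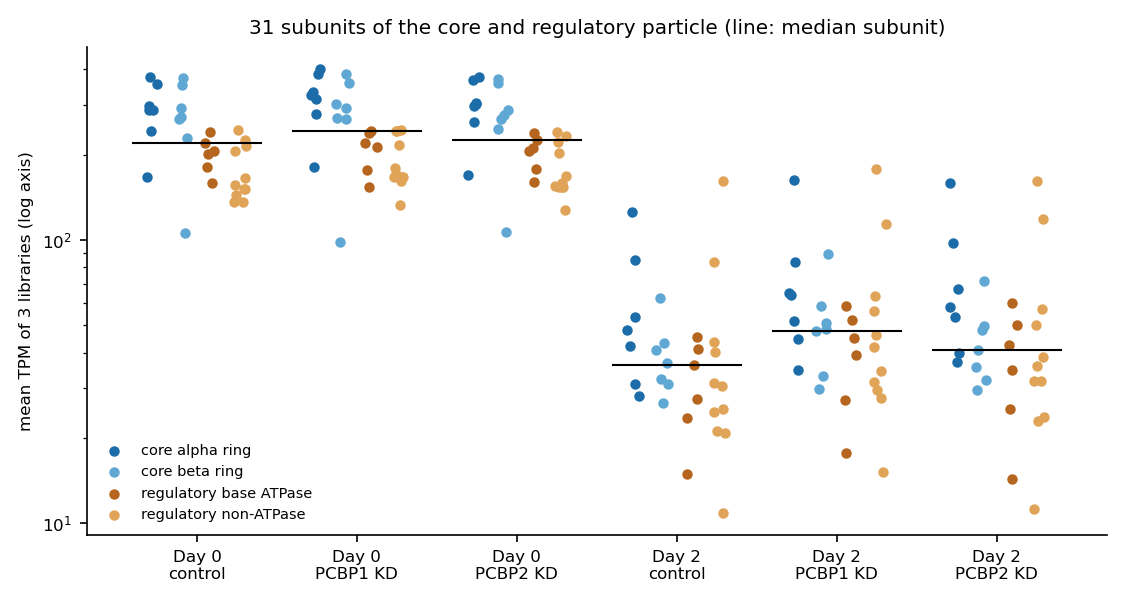
Mean TPM of 3 libraries over all transcripts (log axis) for 31 subunits of the core and regulatory particle. The 6 groups are those of day and condition, points are coloured by role, and a line marks the median subunit. Points spread over a wider range in every Day 2 group than in every Day 0 group, and the medians fall from 214.0 to 246.8 TPM in Day 0 libraries to 30.9 to 50.3 TPM in Day 2 libraries.

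The second comparison asks what PCBP1 knockdown did to these genes. At Day 0 no member was called by edgeR or by DESeq2, where 0.891% of all genes were with edgeR, and 0 had an unadjusted edgeR p under 0.05. A fit of the 9 Day 0 libraries alone called no member either, but 1.57% of 15782 genes higher and 5.47% lower. Member log2 differences at Day 0 ran from -0.20 to 0.17. At Day 2 Psmg1, Psmf1 and Psmd2 were higher and Psme3, Psmb5 and Psma7 lower, 6 of 47 members (12.8%) against 13.0% of all genes, so the share of calls was that of the background. The members' median was 0.03, against 0.02 over all genes, and groups did not overlap for 9 of 47 members, against 22.1% of all genes.

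Psme3 read 2139.3, 1985.7 and 1677.3 CPM with PCBP1 hairpins, below the 2496.3, 2606.8 and 2724.2 CPM of controls (log2 difference -0.43, SE 0.09, edgeR adjusted p = 0.00291). All 3 hairpins lay below all controls, yet far above Day 0. The call held when each of the 6 libraries was left out in turn, and was lost with average transcript length offsets (-0.24, edgeR adjusted p = 0.0936) and when scaled by library totals (-0.20, edgeR adjusted p = 0.108), which moved the median of all genes to 0.25. Psmg1 was at 1.37, 1.45 and 1.57 CPM in controls and 2.45, 2.67 and 3.16 CPM with PCBP1 hairpins (log2 difference 0.92, SE 0.21, edgeR adjusted p = 0.00525), also in all 6 such fits. It rests on few estimated reads, 44, 47 and 60 with PCBP1 hairpins and 27, 30 and 27 in controls. These were the 2 calls that remained in a fit of the 9 Day 2 libraries alone, with edgeR adjusted p = 0.0426 for Psme3 and 0.0445 for Psmg1. With the GC trend removed from that fit, a setting chosen after seeing the data, Psmg1 was no longer called (0.92, edgeR adjusted p = 0.0573).

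Psmf1 was at 52.9, 56.1 and 50.9 CPM in controls and 69.0, 72.5 and 63.3 CPM with PCBP1 hairpins (log2 difference 0.36, SE 0.10, edgeR adjusted p = 0.0158). Its groups did not overlap, but the call ended without the LUC-1 control and in the 9-library fit (edgeR adjusted p = 0.0867). The remaining calls held in only 2 of the 6 fits with a library left out. They were Psmd2, the large scaffold of the base (219.4, 206.0 and 184.9 against 274.8, 228.7 and 233.1 CPM, log2 difference 0.27, edgeR adjusted p = 0.0457), Psma7 (105.0, 105.4 and 105.1 against 73.3, 95.8 and 76.7 CPM, log2 difference -0.36, edgeR adjusted p = 0.0308) and Psmb5 (35.0, 45.6 and 48.7 against 28.0, 31.4 and 34.9 CPM, log2 difference -0.46, edgeR adjusted p = 0.0342).

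The LUC-1 control had the highest globin share at Day 2 (33.36%), and without it 1 member was called higher and 2 lower (2.84% and 5.52% of all genes). Without PCBP1 hairpin SH3, which left the most Pcbp1, 6 were higher and 2 lower (8.12% and 6.67% of all genes). Scaled by library totals, 17 members were higher and none lower (19.8% and 3.59% of all genes). Beside these values, 8 of the 11 erythroid markers were lower with PCBP1 hairpins at Day 2 and none higher (2 lower and 1 higher by library totals), their sum being 421590 to 451095 CPM against 525063 to 708749 in controls, and globin shares were 24.67 to 26.51% against 27.52 to 33.36%. Progenitor markers summed to 25.9 to 31.1 CPM against 23.3 to 30.8. The part of a different stage of maturation in the members' differences was not tested. The change of the PCBP1 difference from Day 0 to Day 2 was called for no member by edgeR (0.4% of all genes). DESeq2 called it for 2 of 47 members, 1 higher and 1 lower, against 2.0% and 2.78% of 12409 genes. An unadjusted edgeR p under 0.05 was found for 2287 of 17500 genes and 3 of 47 members: Psmf1 (0.55, edgeR adjusted p = 0.067), Psme3 (-0.43, edgeR adjusted p = 0.123) and Psmg1 (0.75, edgeR adjusted p = 0.168).

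**Figure D3:**
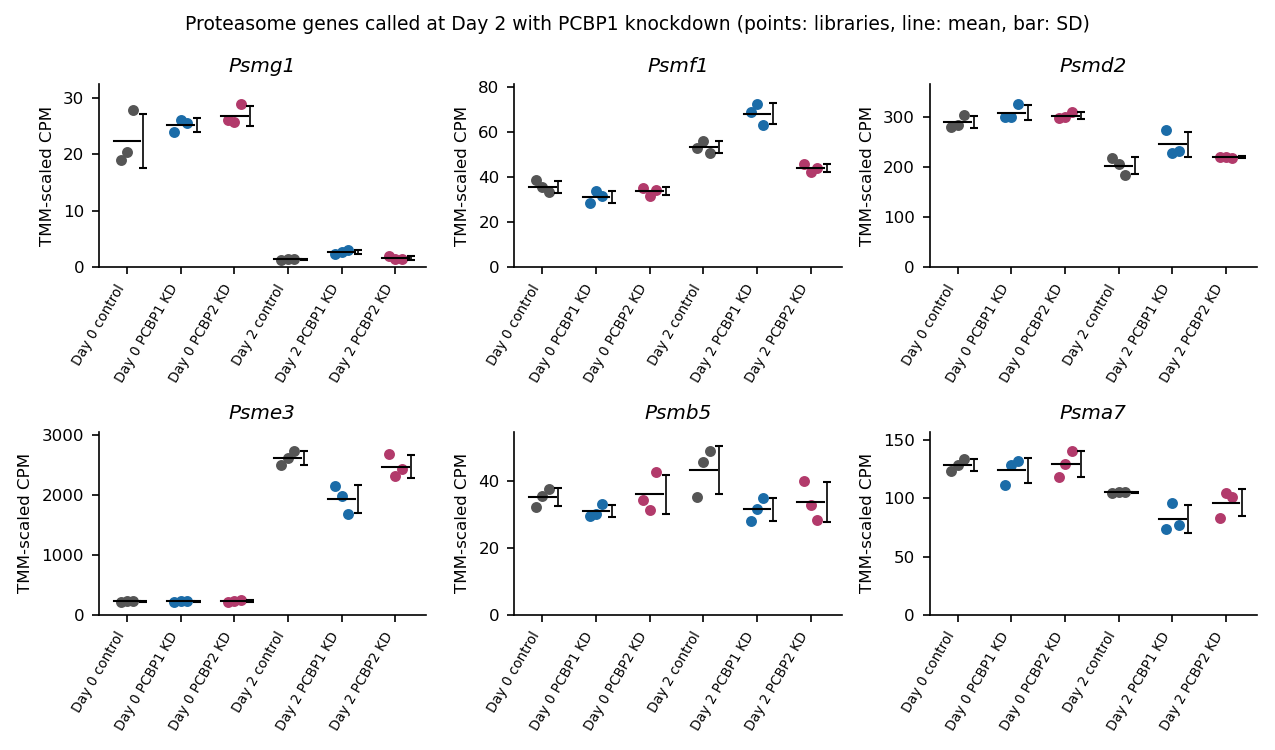
TMM-scaled CPM of the members called with PCBP1 knockdown at Day 2, 1 panel per gene, by day and condition (points are libraries, lines means, bars SD, n = 3). With PCBP1 hairpins Psme3 sits at 1677.3 to 2139.3 CPM, below the controls at 2496.3 to 2724.2, and Psmf1 at 63.3 to 72.5 CPM, above the controls at 50.9 to 56.1; scaled by library totals, Psme3 was not called (-0.20).

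The same question for PCBP2 gave no member called by edgeR on either day, against 0.0229% of all genes at Day 0 and 4.67% at Day 2. At Day 0 DESeq2 called 0 members as well, 0 had an unadjusted edgeR p under 0.05 and log2 differences ran from -0.19 to 0.26. At Day 2, 7 of 47 members had an unadjusted edgeR p under 0.05, against 3231 of 17500 genes in all. Log2 differences ran from -0.51 to 0.21, and the member median was -0.07 against -0.01 over all genes. DESeq2 called 3 of 47 members, all lower, where it called 2.38% of 13426 genes higher and 9.03% lower. Nearest to the threshold was Psme1, at 9.44, 12.5 and 16.2 CPM in controls and 9.72, 8.94 and 8.03 CPM with PCBP2 hairpins (log2 difference -0.51, SE 0.15, edgeR adjusted p = 0.0505), with overlapping groups. Psmf1 was at 45.8, 42.2 and 44.1 CPM (-0.28, SE 0.10, edgeR adjusted p = 0.109) and Psme3 at 2676.1, 2306.3 and 2430.0 CPM (-0.08, SE 0.09, edgeR adjusted p = 0.707). Without the LUC-1 control 3 members were called lower, against 4.46% of all genes. Of the 11 erythroid markers 3 were lower and 1 higher (2 lower and 1 higher by library totals). Their sum was 439897 to 528165 CPM with PCBP2 hairpins at Day 2, against 525063 to 708749 in controls. Globin shares were 25.82 to 28.52% against 27.52 to 33.36%. The part of a different stage of maturation was not tested. The change of the PCBP2 difference between days was called for no member by edgeR or DESeq2 and for 0.0% of all genes by edgeR. For that change 2 of 47 members had an unadjusted edgeR p under 0.05, against 1583 of 17500 genes.

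Set directly against each other, the 2 knockdowns differed at Day 2 in 5 of 47 members, 1 higher and 4 lower with PCBP2 hairpins, where 12.3% of all genes were called, 4.83% higher and 7.5% lower. At Day 0 none was called by edgeR (0.257% of all genes) or DESeq2, nor in a fit of the 9 Day 0 libraries alone (1.53% of all genes higher and 0.45% lower). There 1 of 47 members had an unadjusted edgeR p under 0.05, against 1144 of 17500 genes. The clearest call at Day 2 was Psmf1, lower with PCBP2 hairpins (45.8, 42.2 and 44.1 CPM) than with PCBP1 hairpins (69.0, 72.5 and 63.3 CPM) by 0.63 on the log2 scale (SE 0.10, edgeR adjusted p = 0.000292). Control levels lay between both groups. This call held in all 10 other settings and all 6 fits with a library left out, the 9-library fit included (edgeR adjusted p = 0.0144). The other calls were lost in the 9-library fit, where edgeR adjusted p ran from 0.0926 to 0.209. They were Psme3 (0.35 higher with PCBP2 hairpins, edgeR adjusted p = 0.0149), Psme1 (-0.60, edgeR adjusted p = 0.012), Psmg1 (-0.71, edgeR adjusted p = 0.0286) and Psmg2 (-0.41, edgeR adjusted p = 0.0334). Without PCBP1 hairpin SH3, 1 was higher and 15 lower, against 4.46% and 12.6% of all genes.

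Genes that work with the proteasome but fall outside the spelling rule moved both ways in controls from Day 0 to Day 2. Of 18 partners, 7 rose and 8 fell (median -0.15), against 6 and 12 when scaled by library totals. Zfand5 (4.08), an activator of the enzyme, Fbxo7 (4.03), a ubiquitin ligase subunit that binds PI31, and Usp14 (2.82), a deubiquitinase of the regulatory particle, rose, while Pomp (-1.73), which matures the core, and the shuttle Rad23b (-1.92) fell. Of 9 regulators of proteasome transcription 5 rose and 2 fell (median 2.22; 4 and 4 by library totals), among them Nfe2l1, the factor that raises proteasome genes when the enzyme is impaired (2.66, SE 0.10, edgeR adjusted p = 8.02e-18), and its partners Mafg (4.03) and Mafk (5.31). Ubiquitin supply had 4 higher and 3 lower of 7 (median 0.81; 2 and 5 by library totals), with Ubb at 3.98. The p97 segregase and its adaptors had 7 higher and 3 lower of 10 (median 0.83; 2 and 8 by library totals). Ubiquitin enzymes known from late erythroid cells had 10 higher and 2 lower of 12 (median 4.80; 8 and 4 by library totals), among them Ube2o (6.73), Ube2h (7.13) and Trim58 (5.45). Of 12 genes of interferon response and antigen presentation 7 rose and 3 fell (median 0.83; 4 and 7 by library totals), with Isg15 at 8.56 and the peptide transporter Tap2 at -1.90. The genes named here kept their direction by library totals, with Nfe2l1 at 1.03 and Usp14 at 1.18.

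With PCBP1 knockdown at Day 2, 5 of the 9 regulators were lower and 1 higher, against 7.51% and 5.45% of all genes. Nfe2l1 was at 333.7, 347.0 and 288.3 CPM in controls and 216.7, 226.1 and 237.5 CPM with PCBP1 hairpins (log2 difference -0.51, edgeR adjusted p = 0.000597), with no overlap, but was not called by library totals (-0.28, edgeR adjusted p = 0.0613). Maff (-1.20), Mafg (-0.54), Mafk (-0.57) and Keap1 (-0.50), the anchor of Nfe2l2, were also lower, and Ngly1 (0.52), which activates Nfe2l1, was higher. By library totals 3 of the 9 were lower and 1 higher. With PCBP2 hairpins Nfe2l1 was at 318.8, 334.3 and 368.9 CPM and was not called against controls, and it was 0.59 higher than with PCBP1 hairpins (edgeR adjusted p = 0.000319; 0.55 by library totals, edgeR adjusted p = 0.00237). Nfe2l2 was called with neither. Among the partners PCBP1 hairpins gave 2 higher, Pomp (0.57) and Usp14 (0.45), and 3 lower, among them Zfand2b (-0.58) and Fbxo7 (-0.44), against 7 higher and 2 lower by library totals. PCBP2 hairpins gave 3 lower partners, Ube3c (-0.44), Zfand2b (-0.39) and Fbxo7 (-0.36), against 3.72% of all genes, and 2 lower regulators, Mafg (-0.35) and Keap1 (-0.57), and library totals gave 1 higher and 0 lower in each list. Both knockdowns used the same controls. Of the other lists, 1 of 7 ubiquitin supply genes, 2 of 10 p97 genes and 3 of 12 erythroid ubiquitin enzymes were lower with PCBP1 hairpins, where library totals gave 0 lower in each and 1, 1 and 5 higher. Oas1a and Irf1 of the 12 interferon genes were higher with PCBP1 hairpins, against 5 higher and 0 lower by library totals. With PCBP2 hairpins 3 of 12 erythroid ubiquitin enzymes were lower (Trim58 by 0.80; 2 lower and 1 higher by library totals), and no gene of the remaining 3 lists was called, against 2 higher of 7 ubiquitin supply genes by library totals.

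The estimated reads per transcript add the isoforms. Reads of the members lay on protein-coding transcripts for 95.1 to 95.5% at Day 0 and 90.8 to 93.8% at Day 2. Psma7-201 held 96.3, 96.3 and 96.6% of Psma7 reads in Day 0 controls and 77.9, 73.6 and 79.3% in Day 2 controls. Psme2-208 went from 76.6, 80.8 and 84.2% to 41.8, 49.1 and 48.3% of Psme2 reads, while Psme2-207, which retains an intron, went from 0.637, 0.689 and 0.737% to 8.67, 8.44 and 8.57%. For Psmd4 transcripts that retain an intron held 1.22 to 2.55% at Day 0 and 6.06 to 14.1% at Day 2. Psmf1-201 went from 32.7, 31.6 and 34.2% to 4.06, 14.1 and 11.6% of Psmf1 reads, and the decay-prone Psmf1-206 stood at 19.3, 13.1 and 17.4% at Day 2. In Psma3 an intron-retaining transcript held 56.9 to 64.4% of reads in Day 0 controls and 42.8 to 53.4% in Day 2 controls, so much of its gene level lay on a transcript annotated as non-coding.

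Psme3-201 and Psme3-205 are transcripts with different first exons spliced to the same second exon, and the share of the downstream one, Psme3-205, was larger at Day 2 in controls with no overlap, a difference not tested. Of Psme3 reads, Psme3-201 held 89.1, 88.7 and 89.0% in Day 0 controls and 81.4, 80.9 and 83.6% in Day 2 controls, and Psme3-205 held 8.85, 9.18 and 9.51% and 13.5, 13.4 and 12.4%. With knockdown at Day 2 the shares of Psme3-205 were 16.7, 16.7 and 17.9% (PCBP1) and 16.1, 15.7 and 16.9% (PCBP2). Both junctions are shown because the authors' splicing values separate the 2 first exons. Below are the last 15 bases of each first exon in lower case and the first 15 of the shared second exon in capitals (GENCODE M21, GRCm38, plus strand of chromosome 11).
Psme3-201: gaagtgaagctcaagGTTGATTCTTTCAGA
Psme3-205: aattataatttcaagGTTGATTCTTTCAGA
In the authors' deposited table, which pools the libraries of a group, the Psme3-205 junction chr11:101317095-101317181 had a use of 3.7% in Day 0 controls and 27.4% in Day 2 controls, 40.0% with PCBP1 and 38.9% with PCBP2 hairpins at Day 2. The Psme3-201 junction chr11:101316488-101317181 had 95.6% and 70.0% in the same controls of the authors' deposited table. The direction is that of the transcript shares.

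Pooled splicing values in the authors' deposited tables compare knockdown with control for each day. Members held 617, 621, 597 and 592 local splicing variations in the comparisons of PCBP1 at Day 0, PCBP2 at Day 0, PCBP1 at Day 2 and PCBP2 at Day 2. None had a posterior above 0.95 for a change of at least 20 percentage points, where 0.0573, 0.0115, 0.191 and 0.0718% of all variations in the authors' deposited tables did. Psmd14 with PCBP2 hairpins at Day 2 came closest, with a posterior of 0.568 in the authors' deposited table.

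Between days the tables make no test, and pooled values were set side by side. In controls 9 of 585 member variations (1.54%) differed by over 20 points, in the genes Psma3, Psmd10, Psmd11, Psmd14, Psme3 and Psmf1, against 5.19% of 82400 variations in all. With PCBP1 hairpins these were 9 of 585 against 4.0%, and with PCBP2 hairpins 19 of 582 (3.26%) against 5.95%.

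In Psmd11 the skipping of a short coding exon stood at 0.0% in Day 0 controls and 30.1% in Day 2 controls in the authors' deposited table, 18.4% with PCBP1 and 38.2% with PCBP2 hairpins at Day 2. The exon chr11:80470383-80470418 has 36 bases, a multiple of 3, so skipping keeps the reading frame. It is shown in capitals with 12 bases of each neighbouring exon of Psmd11-201.
Psmd11: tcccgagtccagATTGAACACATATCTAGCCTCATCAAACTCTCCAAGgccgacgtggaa
In Psma3 a junction that is not annotated in GENCODE M21, chr12:70984594-70986863, stood at 0.1% in Day 0 controls and 38.1% in Day 2 controls of the authors' deposited table. It passes over the exon chr12:70984672-70984745, whose 74 bases leave a remainder of 2 after division by 3, in capitals here within Psma3-202.
Psma3: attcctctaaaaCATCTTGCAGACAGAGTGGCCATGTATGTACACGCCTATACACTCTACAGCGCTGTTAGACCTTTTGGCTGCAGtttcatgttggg
Inclusion of that exon was 89.5% and 33.8% in the same controls of the authors' deposited table. For Psmf1 a junction outside GENCODE M21, chr2:151719643-151729491, stood at 3.0% and 32.9% in the authors' deposited table, and for Psmd14 the annotated junction chr2:61722761-61760636 at 97.1% and 74.2%. With PCBP1 hairpins that Psmd14 junction went from 96.8% to 84.2%, and with PCBP2 hairpins from 96.8% to 93.8%. Per library, the Psmd14-201 share of reads overlapped between the days in controls (93.5, 95.3 and 94.4% against 89.2, 93.6 and 95.5%).

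The widest shift of pooled use lay at the start of Psmd10. The junction chrX:140954010-140956783, not annotated in GENCODE M21, stood at 5.7% in Day 0 controls and 70.6% in Day 2 controls of the authors' deposited table, 67.6% with PCBP1 and 63.3% with PCBP2 hairpins. The annotated junction chrX:140953898-140956554 stood at 94.1% and 29.0%, 31.9% and 36.3% in the same groups of the authors' deposited table. The outer end of the first junction lies 55 bases upstream of the GENCODE gene start and 72 bases upstream of the RefSeq start. The sequence around that end, chrX:140956767-140956796 from the RefSeq promoter table, is given on the minus strand of Psmd10 with the first 2 bases of the intron in capitals.
Psmd10: ggctatgggcggggCTacaaggaaaacaaa
Introns usually open with GT. The letters CT read AG on the other strand, the strand of the neighbouring gene Atg4a, which rose from 20.1, 21.4 and 18.8 CPM to 1094.2, 932.7 and 972.6 CPM in controls (log2 change 5.64). The strand setting of the reads is not given in the sources used here, and the part of Atg4a in the Psmd10 values was not tested. Exons of 13 members overlap another gene, 4 of them a gene on the same strand, among them Psmb7 with Nek6 and Psme1 with Emc9, both on the opposite strand.

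**Figure D4:**
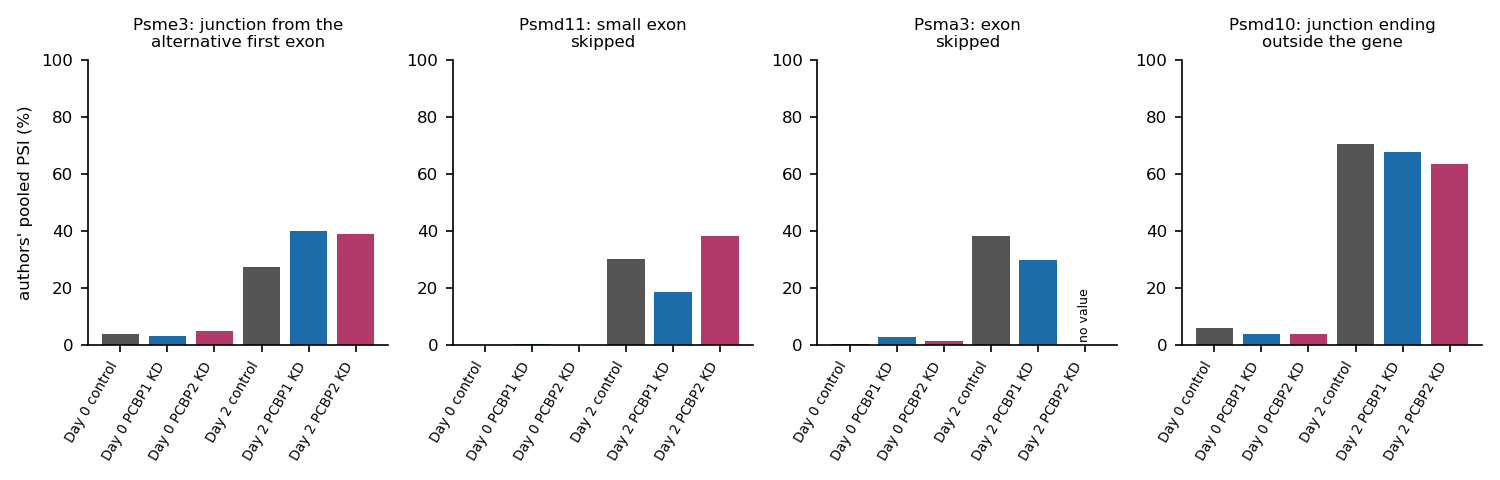
Authors' pooled use of a junction (percent) in the 6 groups, 1 panel each for Psme3, Psmd11, Psma3 and Psmd10. Bars show a junction that rose between the days in controls, and a pooled value carries no error. In controls the Psmd10 bar goes from 5.7% at Day 0 to 70.6% at Day 2, and the Psme3 bar from 3.7 to 27.4%. Psma3 has no value with PCBP2 hairpins at Day 2.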

How the data were processed

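RNA from 18 libraries was sequenced by the authors, who deposited 1 transcript table per library with estimated counts and TPM from Salmon 0.11.3, per the file headers and the submitters' processing notes, which also name FastQC 0.11.9, Trim Galore 1.46.0, STAR 2.5.3a, SAMtools 1.9 and GRCm38. The deposited splicing tables give junction use as a fraction, with posteriors, for pooled libraries. The tool behind them is not given in the sources used here. Strand and filter settings are likewise not given.

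Estimated counts were summed per GENCODE M21 gene and rounded. Of 111706 transcripts 1303 had no match and held 0.2747 to 0.5788% of reads. CPM values are TMM-scaled. The test was edgeR 4.0.16 (quasi-likelihood, robust, filterByExpr, R 4.3.3) with 1 mean per group over all 18 libraries, 12 residual degrees of freedom and adjustment over 17500 genes at 0.05. The test was run on simulated data first. Alternatives were DESeq2 1.42.0, other scalings, no filter, transcript length offsets, GC, single-day fits, a construct block and leaving out libraries. Members, lists and tests were chosen with earlier results of these data known. Genes were named by role or by the 6 largest calls per direction. Counting limits precision: a gene with few estimated reads, such as Psmb11, is the least certain. The values of 1 gene of the partner list are not reported here.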

Additional observations from a re-analysis of the deposited data

How the results depend on the processing

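Of the comparisons between days, all kept the number of calls within 1.5 times in the settings tried, with 42 to 46, 42 to 44 and 42 to 44 members called when 1 library was left out (control, PCBP1 and PCBP2 hairpins). The number with PCBP1 hairpins at Day 2 (6) was 17 by library totals, 3 with transcript length offsets, 2 in the 9-library fit, 1 in that fit with the GC trend removed (chosen after seeing the data) and 3 to 8 with 1 library left out. The share of all genes moved too. By library totals 19.8% were higher and 3.59% lower, with length offsets 4.14% and 6.54%. In the 9-library fit they were 1.92% and 4.24%, and with the GC trend removed 1.06% and 2.56%. With PCBP2 hairpins at Day 2 (0) the number of members called was 1 with DESeq2 size factors, 1 by library totals, 1 without the filter, 3 with DESeq2 and 0 to 3 with 1 library left out. With DESeq2 size factors 0.846% of all genes were higher and 4.35% lower, by library totals 5.57% and 1.25%. Without the filter they were 1.01% and 2.78%, with DESeq2 2.38% and 9.03%. Between the knockdowns at Day 2 (5) the number of members called was 8 with DESeq2 size factors, 13 with DESeq2, 1 in the 9-library fit, 1 with GC removed as well and 2 to 16 with 1 library left out. There DESeq2 size factors called 4.23% of all genes higher and 9.02% lower, and DESeq2 6.48% and 13.4%. The 9-library fit called 1.8% and 1.63%, and with GC removed 2.04% and 2.07%. The change of the PCBP1 difference (0) gave 2 by library totals and 2 with DESeq2. Library totals reversed the day change of Psmd4 (-0.20, -0.14, -0.26 in control, PCBP1 and PCBP2 cells), Psme2 (-0.60, -0.58, -0.22), Psmd11 (-0.61, -0.47, -0.44) and Psmf1 (-1.06, -0.31, -1.05), Psma2 (-1.11, -0.98, -0.88) and Psmd5 (-0.80, -0.85, -0.77), and that of Psmb5 in control (-1.34) and PCBP1 cells (-1.40). In PCBP2 cells Psmb5 was at 0.40 with protein-coding transcripts only. The cause was not tested. For single genes 937 other values stayed on their side of the threshold, 41 lost and 8 gained a call. With a replicate block for the construct 43, 42 and 42 members were called between days, and 45, 44 and 44 with GC removed as well. Both changes of a knockdown difference had 0 calls under the block. Deviations from the group mean correlated at -0.009 to 0.042 between the days for the same construct. Each Day 0 library was also set against the Day 2 libraries of its condition. The closest was its own construct for PCBP1-SH4, SCR-2 and the PCBP2 hairpins, and another for the rest. These values do not settle whether libraries pair. Few reads limit Psmb11, Psma8, Psme2b and, at Day 2, Psmg1 and Psmb10, and 3 libraries a group limit every difference.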
